A study of Mus musculus with 6 samples.

Results

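Carriers of the SLC25 family move metabolites, nucleotides, phosphate and cofactors across the inner mitochondrial membrane, and their mRNAs were followed here in blood platelets of mice. Members were the genes whose symbol is Slc25a followed by a number, which gave 47 of the 24346 symbols in the tables. RNA was sequenced from 3 wild-type libraries and from 3 libraries of mice homozygous for a knock-in of R734C, an amino acid change in the tail that integrin β3, a chain of the platelet fibrinogen receptor, has inside the cell. The labels name no treatment, strain, age or sex for either group and do not say whether the libraries of a group came from separate animals, so p-values describe how these samples scatter, and that scatter may be technical. The comparison bears on which platelet mRNAs differ with the integrin change.

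SLC25 proteins share one fold, built from repeated pairs of membrane helices, and most work as exchangers. ADP/ATP carriers pass ATP out of the matrix in return for ADP, the phosphate carrier supplies the ATP synthase, and other members serve the malate-aspartate shuttle, fatty acid oxidation and the pools of NAD, coenzyme A and glutathione. Platelets hold few mitochondria but make a large part of their ATP in them. Erythroid cells rely on several members to make haem: mitoferrin-1 (Slc25a37) brings in iron, Slc25a38 brings in glycine and Slc25a39 carries glutathione.

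Values are the FPKM that the authors deposited, which are fragment numbers scaled by transcript length and by library size. Of the 20 platelet and megakaryocyte markers, 20 had a mean of at least 1 FPKM, and their sum was 67991 to 70222 FPKM in wild-type and 63610 to 71357 FPKM in knock-in libraries. Of these markers, 6 fell in the knock-in by the test described below (Itgb3, Gp1ba, Tubb1, Selp, Gata1 and Alox12) and 0 rose, beside 8.36% of all tested genes called. The median log2 fold change of the list was -0.15, against -0.01 over all tested genes. At an unadjusted p under 0.05 there were 12 of the 20, beside 25.4% of all tested genes, and these went in both directions. Pf4, its most abundant gene, was higher in the knock-in without passing (log2 fold change 0.29, limma adjusted p = 0.0774). So were Gng11 (0.35, 0.0629) and Rgs18 (0.44, 0.0956). Gp5 (-0.34, 0.0783), Gp6 (-0.26, 0.0985) and Ppbp (-0.25, 0.166) were lower, also without passing. Itgb3 itself, the altered gene, measured 1091, 1244 and 1289 FPKM in wild-type and 870, 803 and 903 FPKM in knock-in libraries (log2 fold change -0.49, SE 0.09, limma adjusted p = 0.0190), and its level does not show whether a library carries an amino acid change. Erythroid markers were also high, with 29 of 31 found in the tables, 29 above 0 and 23 with a mean of at least 1 FPKM. Their sum was 97268, 50157 and 39990 FPKM in wild-type libraries 1, 2 and 3 and 185863, 26640 and 34237 FPKM in knock-in libraries 1, 2 and 3. Globin genes made up most of it in every library, with 90559 FPKM in wild-type library 1 and 174628 FPKM in knock-in library 1. Knock-in library 1 was thus the richest in erythroid mRNA and knock-in libraries 2 and 3 the poorest, so this level varied far more within the knock-in group than between the groups. Summed neutrophil and B cell markers stayed at or below 2.35 and 0.837 FPKM. T and NK cell markers summed to at most 8.83 FPKM, most of it Nkg7, with Cd3d, Cd3e and Cd4 listed at 0 throughout. Monocyte and macrophage markers other than Lyz1 and Lyz2, which averaged 8019 FPKM for Lyz2, summed to at most 3.97 FPKM. Depth relative to wild-type library 1, read from the commonest ratio of low values, lay between 0.882 and 1.05, and the files give no number of fragments. In bulk RNA, fewer cells of a type and less RNA per cell cannot be told apart.

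Of the 47 members, 19 had a mean of at least 1 FPKM over the 6 libraries, 18 were above 0 in some library with a lower mean, and 10 were listed at 0 in every library. Family mRNA summed to 515, 369 and 335 FPKM in wild-type libraries 1 to 3 and to 833, 241 and 263 FPKM in knock-in libraries 1 to 3. That was between 0.0318% and 0.0972% of the total FPKM of a library. The highest and the lowest sums both belonged to knock-in libraries, so the totals overlapped. Slc25a39 alone made up 19.9% to 57.8% of the family sum. Without Slc25a39, Slc25a37 and Slc25a51, the other 44 members summed to 171, 192 and 205 FPKM in wild-type and 167, 174 and 174 FPKM in knock-in libraries, a much narrower range. This split was chosen after the values were seen.

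**Figure D1:**
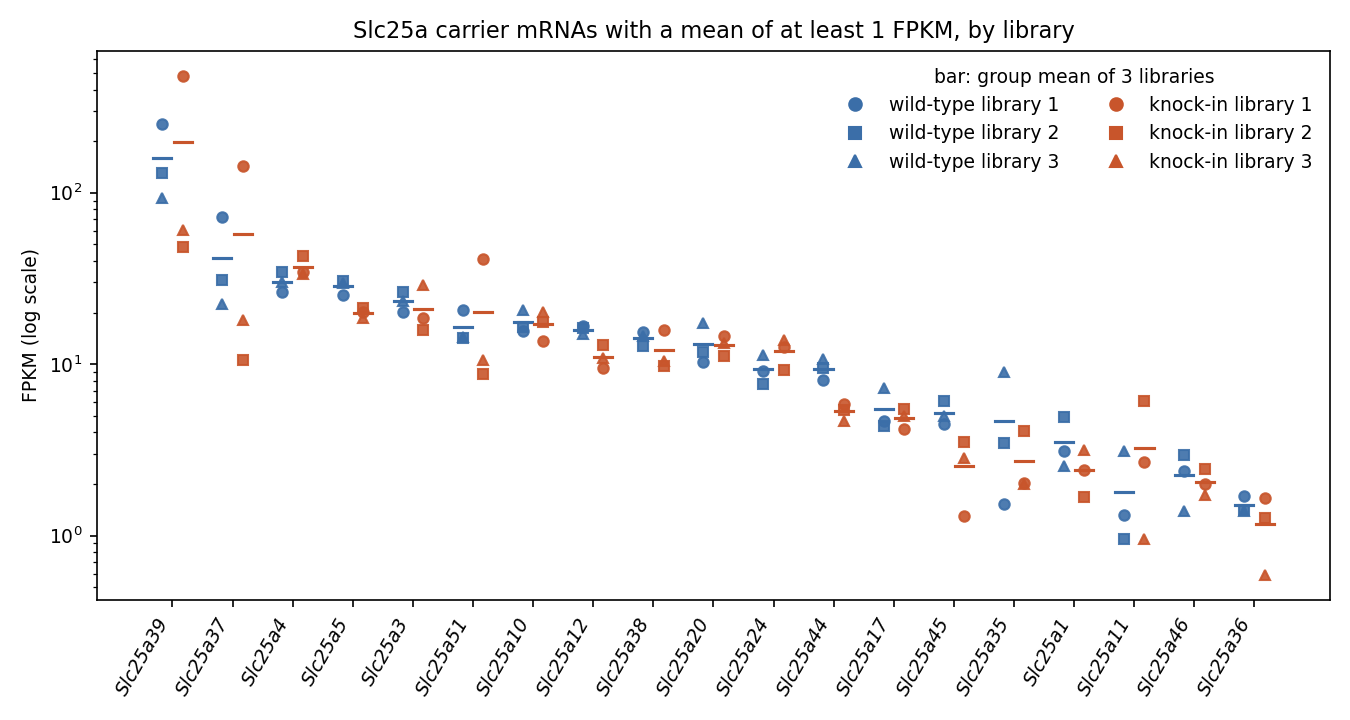
FPKM on a log scale of the 19 members with a mean of at least 1 FPKM, in order of mean; each symbol is 1 of 3 libraries per group and each bar a group mean. Slc25a39, Slc25a37 and Slc25a51 spread widely between libraries, from 48.04 to 482 FPKM for Slc25a39, while Slc25a5 and Slc25a44 separate the groups.

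**Figure D2:**
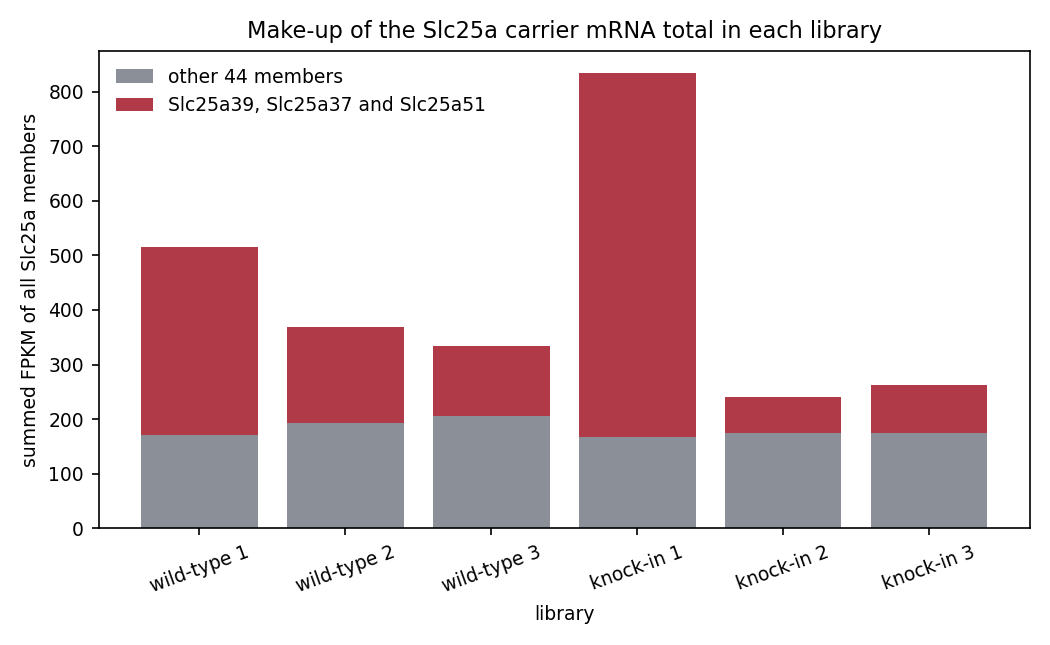
Summed FPKM of all 47 members in each of the 6 libraries, split into Slc25a39, Slc25a37 and Slc25a51 (red) and the other 44 members (grey). The grey part stays between 167 and 205 FPKM, and the red part is largest in knock-in library 1.

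No member passed the test between genotypes. Limma on log2(FPKM + 1), adjusted over the 4859 genes with a mean of at least 1 FPKM, called 0 of 19 members higher and 0 lower at an adjusted p of 0.05, where 8.36% of all tested genes were called. At an unadjusted p under 0.05 there were 4 members, Slc25a5, Slc25a12, Slc25a44 and Slc25a45, beside 25.4% of all tested genes. In the same 4 members the values of the groups did not overlap, beside 30.7% of all tested genes. All 4 were lower in the knock-in, as were the 6 called platelet markers. Without passing, the platelet markers Pf4, Gng11 and Rgs18 were higher and Gp5, Gp6 and Ppbp lower. Whether platelet markers and carriers moved together was not tested. The fold changes of 15 members were below 0 and those of 4 above, where 51.5% of all tested genes were below 0. With a library left out, 11 to 15 members were below 0. The median log2 fold change was -0.24 for the members against -0.01 over all tested genes. The median size of the change, regardless of sign, was 0.28 for the members and 0.29 for all tested genes. The count of 0 became 2 of 13 with a stricter filter at 5 FPKM, where 18.6% of all tested genes were called. It became 2 of 19 with sample weights (12.4% of all genes) and 2 of 19 without the library richest in erythroid mRNA in each group (13.95% of all genes). Without knock-in library 1 it became 1 of 19, that of Slc25a39, beside 12.1% of all genes. These shares of members lie near or below those of all genes.

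**Figure D3:**
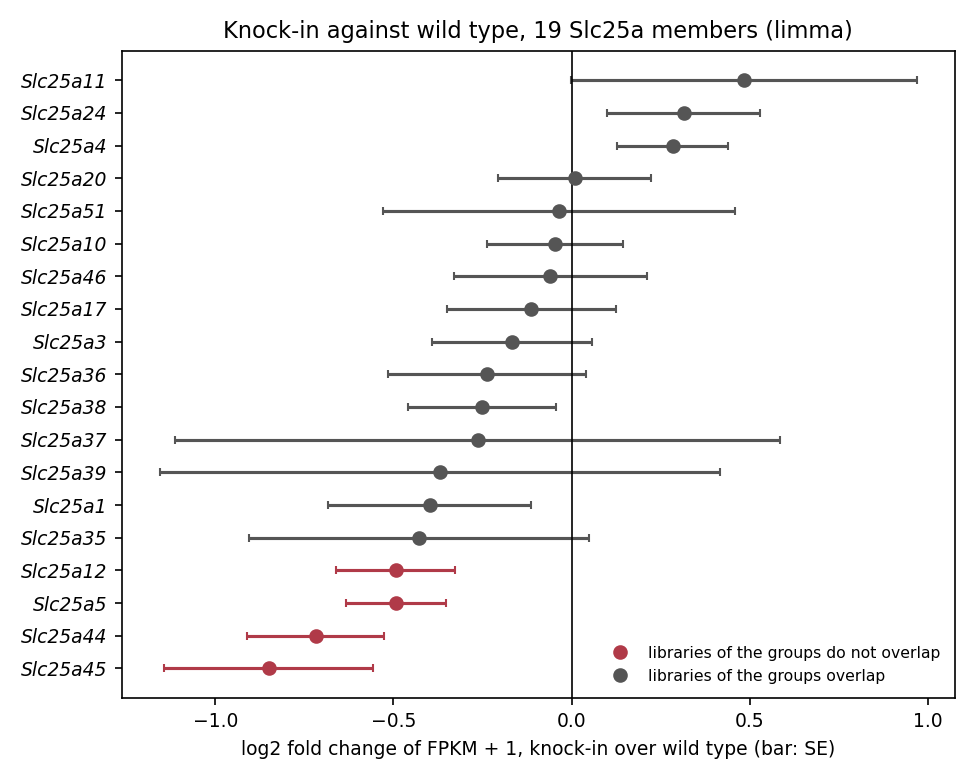
Log2 fold change of FPKM + 1, knock-in over wild type, with its standard error from limma for the 19 members. Red points mark the 4 members whose libraries do not overlap between the groups; the widest bars belong to Slc25a37, with a standard error of 0.85, and Slc25a39, with 0.79.

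Slc25a39, the glutathione carrier, was the most abundant member. It measured 252, 131 and 92.8 FPKM in wild-type libraries 1, 2 and 3 and 482, 48.04 and 60.4 FPKM in knock-in libraries 1, 2 and 3. The highest value and both lowest ones were knock-in values. Group means were 159 ± 83.4 and 197 ± 247 FPKM (SD, n = 3 each), and limma gave a log2 fold change of -0.37 (SE 0.79, adjusted p = 0.825). The mean was higher in the knock-in while the log2 fold change was lower, because a mean of FPKM follows the single high library. Without knock-in library 1 the log2 fold change was -1.42 (limma adjusted p = 0.0332), and without wild-type library 1 as well it was -1.02 (0.0145). With wild-type library 1 or knock-in library 2 or 3 left out the fold change was above 0, so this member has no stable direction between the genotypes.

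Slc25a37, mitoferrin-1, measured 71.8, 31.1 and 22.5 FPKM in the wild type and 144, 10.5 and 18.1 FPKM in the knock-in. The order of the libraries was the same as for Slc25a39. The group means were 41.8 ± 26.3 and 57.5 ± 74.9 FPKM (SD, n = 3), for a log2 fold change of -0.26 (SE 0.85, limma adjusted p = 0.886). Exons of this gene overlap those of 2 genes on the other strand, Gm27223 and Gm31748, and the library kits do not keep strand, so reads of these genes cannot be told apart there. Its paralogue Slc25a28, mitoferrin-2, was above 0 in 1 library, at 0.229 FPKM in wild-type library 3.

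Slc25a51, which carries NAD into the matrix, measured 20.6, 14.3 and 14.4 FPKM in the wild type and 41.1, 8.70 and 10.6 FPKM in the knock-in. As with the preceding genes, knock-in library 1 was highest and the other knock-in libraries lowest. Between the genotypes it gave a log2 fold change of -0.04 (SE 0.49, limma adjusted p = 0.979). Its exons overlap Gm25692 on the same strand, so its level is less certain. Slc25a38, the glycine carrier of haem synthesis, measured 15.3, 12.8 and 14.5 FPKM in the wild type and 15.9, 9.71 and 10.4 FPKM in the knock-in. Its range over the libraries was 1.64-fold, far smaller than the 13.7-fold range of Slc25a37, the 10.02-fold range of Slc25a39 or the 4.73-fold range of Slc25a51. The groups overlapped, with a log2 fold change of -0.25 (SE 0.21, limma adjusted p = 0.509).

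The levels of these carriers were set beside the summed erythroid markers, mostly globin, whose range over the libraries was 6.98-fold. Slc25a39 and Slc25a37 placed the 6 libraries in the same order as the markers, in 15 of 15 pairs of libraries. Slc25a51 and Slc25a38 did so in 14 of 15 pairs and Slc25a36 in 13, while the remaining members did so in 3 to 9 pairs. Slc25a39 stood at 2.60, 2.61 and 2.32 FPKM per 1000 FPKM of erythroid markers in the wild type and at 2.59, 1.80 and 1.77 in the knock-in, a 1.48-fold range. Slc25a37 stood at 0.738, 0.620 and 0.563 in wild-type libraries, against 0.774, 0.395 and 0.528 in knock-in libraries, and Slc25a51 at 0.212, 0.285 and 0.361, against 0.221, 0.327 and 0.309. For Slc25a39, Slc25a37 and Slc25a51 dividing by the erythroid level thus brought the libraries closer together. For Slc25a11 and Slc25a35, whose raw ranges were 6.38-fold and 5.83-fold, it widened the range to 16.8-fold and 20.5-fold. For Slc25a38 it widened the range to 4.26-fold, and for the ADP/ATP carrier genes Slc25a4 and Slc25a5 to 8.64-fold and 7.29-fold.

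A limma fit with the log2 erythroid level as a second term beside genotype, chosen after the data were seen, gave each gene a slope. A slope of 1 means that the gene doubles when the erythroid markers double. Slopes were positive and past the threshold in 3 of 19 members and in 3.09% of all tested genes; 0 members had a called negative slope. Slc25a39 had a slope of 1.18 (SE 0.05, limma adjusted p = 5.05e-07), Slc25a37 one of 1.26 (SE 0.07, 2.98e-06) and Slc25a51 one of 0.70 (SE 0.09, 0.00108). Slc25a38 had a slope of 0.21 (SE 0.09) that did not pass (limma adjusted p = 0.446). Without knock-in library 1 the slopes of Slc25a39 and Slc25a37 still passed, at 1.08 (limma adjusted p = 0.00457) and 1.31 (0.0139), and that of Slc25a51 did not, at 0.43 (0.507). Without the richest library of each group 0 of 4859 genes passed, with slopes of 1.17 and 1.72 for Slc25a39 and Slc25a37 and 0.37 for Slc25a51. With the erythroid level in the fit, the genotype difference was -0.29 for Slc25a39 (limma adjusted p = 0.0939), -0.18 for Slc25a37 (0.444) and 0.012 for Slc25a51 (0.976). Whether erythroid RNA in the platelet preparation gave the differences between libraries was not tested.

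**Figure D4:**
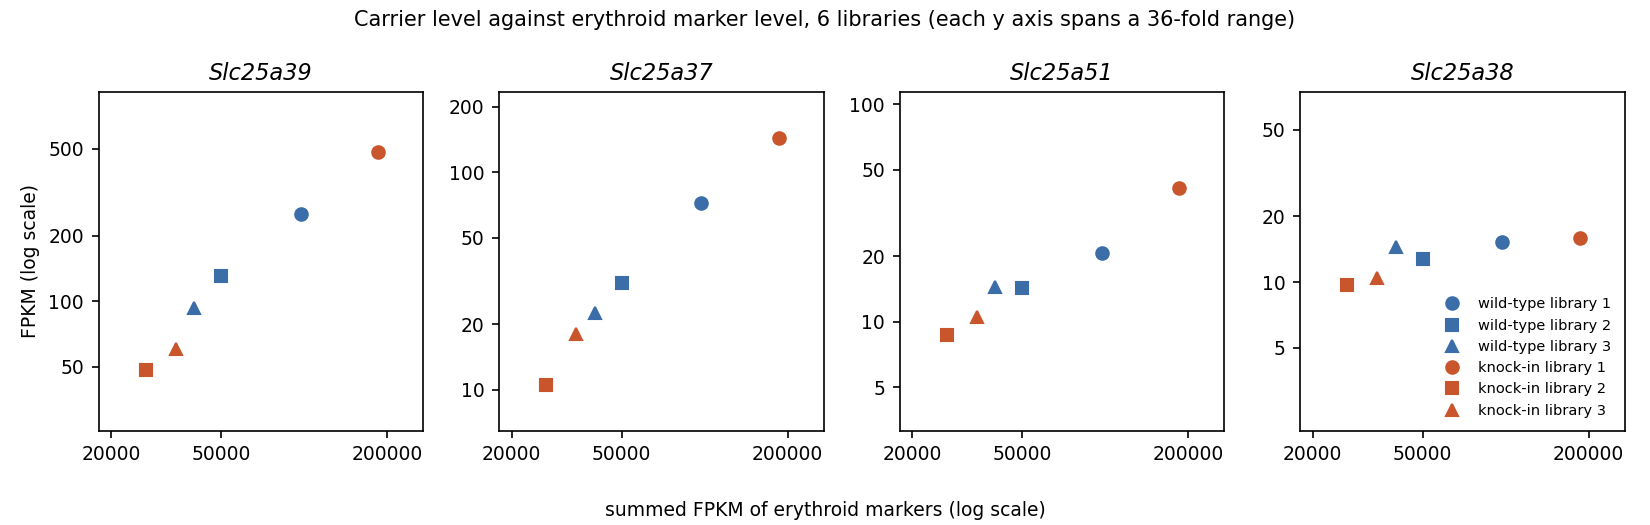
FPKM of Slc25a39, Slc25a37, Slc25a51 and Slc25a38 against the summed FPKM of erythroid markers in each of the 6 libraries, both axes on a log scale and each vertical axis spanning the same fold range. The first 3 carriers climb with the erythroid sum across both groups, and Slc25a38 stays between 9.71 and 15.9 FPKM.

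Some genes of haem synthesis and of iron-sulfur cluster assembly had such slopes too, while Uros, Cpox, Ppox, Nfs1 and Isca2 were tested without a called slope. From a list of 20 genes of haem synthesis and iron-sulfur cluster assembly, 14 were tested, 0 passed between the genotypes in limma and 2 had an unadjusted p under 0.05, beside 25.4% of all tested genes. Without knock-in library 1 there were 6 calls, where 12.1% of all tested genes were called. A called positive slope on the erythroid level was found for 9, beside 3.09% of all tested genes. Among these were Alas2, the erythroid first enzyme of haem synthesis, with a slope of 1.31 (SE 0.05, limma adjusted p = 2.09e-07), and Fech, which inserts the iron, with 1.20 (SE 0.05, 5.05e-07). Alas2 and Fech are themselves on the erythroid marker list, so their slopes are not independent of the level they are set against. Alas2 was the most abundant of the list, at 1714, 826 and 532 FPKM in the wild type and 3083, 217 and 373 FPKM in the knock-in. Ucp2, a carrier of the same family under another symbol, measured 208, 133 and 84.9 FPKM in the wild type and 363, 54.5 and 68.2 FPKM in the knock-in. Its slope was 0.97 (SE 0.06, limma adjusted p = 5.35e-06), and per 1000 FPKM of erythroid markers it varied 1.36-fold over the libraries. Of the 5 family members named otherwise (Ucp1, Ucp2, Ucp3, Mtch1 and Mtch2), 3 were tested and 0 passed between the genotypes in limma, also at an unadjusted p under 0.05.

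Slc25a39 lies on chromosome 11 at 102402985 to 102407946 of GRCm38, minus strand, and Slc25a37 on chromosome 14 at 69241848 to 69285112, minus strand. Slc25a51 lies on chromosome 4 at 45395923 to 45408766 and Slc25a38 on chromosome 9 at 120110374 to 120124504. Sequence of the 250 bases before the RefSeq start, which can differ from the GENCODE start, was at hand for 14 of the 19 members. Slc25a39 was among them, but not Slc25a37 or Slc25a51. It was searched on both strands for GATA hexamers (A or T, then GATA, then A or G), for CCACCC and for CCAAT, letters known as binding motifs of GATA factors, of the KLF family and of NF-Y. GATA hexamers were found in 3 of these 14 members and in 26.5% of 32851 promoters, CCACCC in 6 members and 28.1%, and CCAAT in 5 members and 33.8%. A match is a run of letters and not a shown site. The promoter of Slc25a39 is shown because it is the most abundant member and had a called slope on the erythroid level (GRCm38.p6, chr11:102407518-102407767, minus strand), 5′ to 3′, with motif letters in capitals. It holds 35 CG pairs, against a median of 6 over all promoters, a CCACCC on the other strand, and none of the GATA hexamers. The window lies inside the GENCODE span of the gene given above, so by GENCODE these bases are not before the start.
Slc25a39: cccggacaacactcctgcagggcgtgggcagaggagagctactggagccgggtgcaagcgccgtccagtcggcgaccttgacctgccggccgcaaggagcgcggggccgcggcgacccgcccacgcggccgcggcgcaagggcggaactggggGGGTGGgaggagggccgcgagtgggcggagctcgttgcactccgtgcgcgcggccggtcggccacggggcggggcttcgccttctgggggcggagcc

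Among the carriers of ATP production, Slc25a4 and Slc25a5 encode ADP/ATP carriers, the form of heart and muscle and the form of dividing cells. Slc25a4 measured 26.2, 34.6 and 30.1 FPKM in the wild type and 34.7, 42.9 and 33.6 FPKM in the knock-in. Wild-type library 2 lay above knock-in library 3, so the groups overlapped. The means were 30.3 ± 4.18 and 37.1 ± 5.11 FPKM (SD, n = 3), for a log2 fold change of 0.28 (SE 0.16, limma adjusted p = 0.303).

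Slc25a5 measured 25.4, 30.5 and 29.9 FPKM in the wild type and 20.3, 21.2 and 18.5 FPKM in the knock-in. All 3 knock-in values lay below all 3 wild-type values. The means were 28.6 ± 2.78 and 19.98 ± 1.37 FPKM (SD, n = 3), 1.41-fold apart on the log2(FPKM + 1) scale, with a log2 fold change of -0.49 (SE 0.14). The difference did not pass (limma adjusted p = 0.0661), and it passed in 3 of 18 alternatives. These were the filter at 5 FPKM (0.0390), sample weights (0.0372) and the fit without the richest library of each group (0.0499). They called 18.6%, 12.4% and 13.95% of all tested genes. Over all 18 the log2 fold change of Slc25a5 stayed between -0.59 and -0.43, with limma adjusted p values up to 0.203. Its slope on the erythroid level was -0.03 (SE 0.08), which did not pass (limma adjusted p = 0.961). BLAST found 5 processed pseudogenes with at least 90% identity to Slc25a5, the closest at 98.3%, so its level is less certain than that of the other members, for which no such copy was found.

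The ratio of Slc25a4 to Slc25a5, both per transcript length, was 1.03, 1.13 and 1.01 in wild-type libraries, against 1.71, 2.03 and 1.82 in knock-in libraries. All knock-in ratios lay above all wild-type ratios, with means of 1.06 ± 0.0677 and 1.85 ± 0.161 (SD, n = 3). The groups were 1.75-fold apart (exact two-sided permutation p = 0.1, the smallest that 3 against 3 samples can give). Scaling of a library cancels in this ratio, which was chosen after its values were seen. Platelet marker genes and the erythroid level are given above, and their part in it was not tested. Leaving out each library in turn kept the log2 difference of 0.81 between 0.74 and 0.86, and a pseudocount of 5 lowered it to 0.68. The summed level of both genes was 58.9 ± 6.78 FPKM in the wild type and 57.1 ± 6.29 FPKM in the knock-in (SD, n = 3), a difference smaller than the spread between libraries. Neither gene passed the test on its own.

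**Figure D5:**
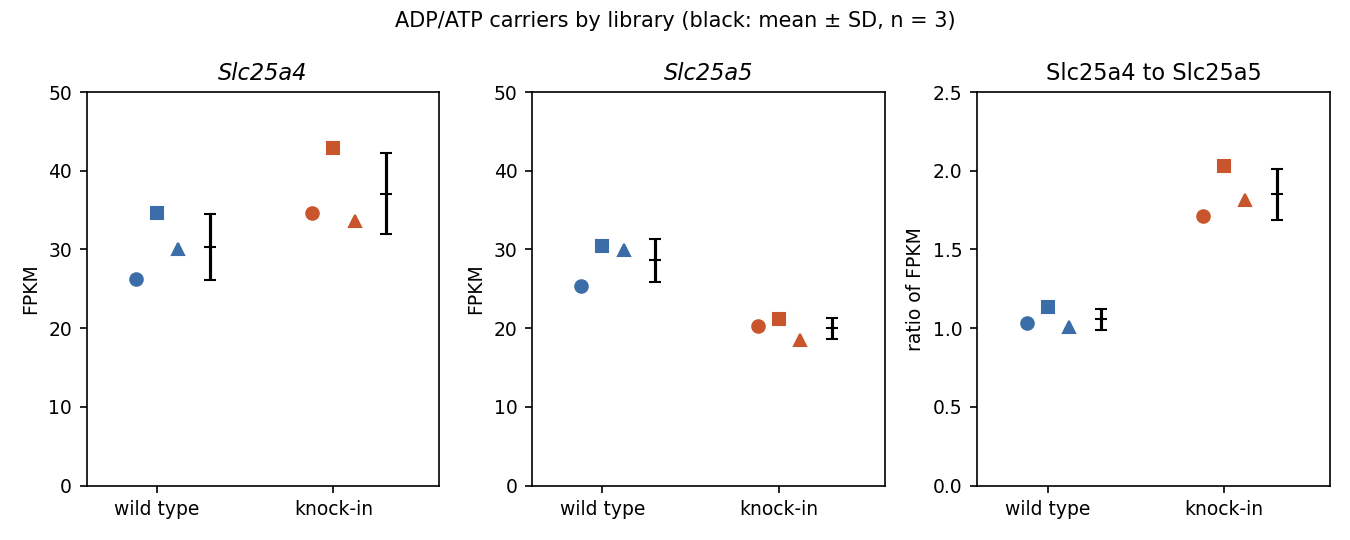
FPKM of Slc25a4 and Slc25a5 and the ratio of the former to the latter in each library, with group mean and SD in black (n = 3 per group). The ratio spans 1.01 to 1.13 in wild-type libraries, below the span of 1.71 to 2.03 in knock-in libraries.

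Slc25a5 lies on chromosome X at 36795651 to 36798807, plus strand, and Slc25a4 on chromosome 8 at 46206797 to 46211284, minus strand. Both promoters are shown because the log2 fold changes of these paralogues had opposite signs. They run 5′ to 3′ over the 250 bases before the RefSeq start, with the same motif letters in capitals, at chr8:46211063-46211312 (minus strand) for Slc25a4 and chrX:36795347-36795596 (plus strand) for Slc25a5 of GRCm38.p6. Each holds a GATA hexamer, on the forward strand in Slc25a4 and as its reverse complement in Slc25a5. CCAAT and CCACCC are present in Slc25a4 and absent from the same window of Slc25a5. By GENCODE most of the Slc25a4 window lies inside the gene, and the Slc25a5 window lies before the gene.
Slc25a4: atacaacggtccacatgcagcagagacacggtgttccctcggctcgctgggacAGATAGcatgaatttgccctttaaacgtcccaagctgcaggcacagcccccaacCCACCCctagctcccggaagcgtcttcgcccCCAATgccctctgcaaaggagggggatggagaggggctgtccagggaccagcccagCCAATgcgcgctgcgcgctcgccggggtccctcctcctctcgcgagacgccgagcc
Slc25a5: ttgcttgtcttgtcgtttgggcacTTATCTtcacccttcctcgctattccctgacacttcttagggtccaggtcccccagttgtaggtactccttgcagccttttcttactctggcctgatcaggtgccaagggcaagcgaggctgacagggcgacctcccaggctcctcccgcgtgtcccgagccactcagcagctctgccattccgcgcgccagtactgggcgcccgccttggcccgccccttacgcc

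Slc25a3, the phosphate carrier, measured 20.2, 26.3 and 23.2 FPKM in the wild type and 18.6, 15.8 and 28.8 FPKM in the knock-in. The knock-in values enclosed the wild-type range, with a log2 fold change of -0.17 (SE 0.22, limma adjusted p = 0.697). Slc25a24, a calcium-regulated carrier of ATP-Mg and phosphate, measured 9.09, 7.66 and 11.2 FPKM against 12.6, 9.20 and 13.8 FPKM in the knock-in. These overlapped too, with a log2 fold change of 0.31 (SE 0.21, limma adjusted p = 0.412). Its relatives Slc25a23 and Slc25a25 averaged 0.0164 and 0.131 FPKM, and Slc25a41 and the germ cell ADP/ATP carrier gene Slc25a31 were listed at 0.

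Among amino acid carriers, Slc25a44, which brings in branched-chain amino acids, had the lowest p of the family. It measured 8.06, 9.44 and 10.7 FPKM in the wild type and 5.85, 5.43 and 4.66 FPKM in the knock-in, with all knock-in values below the wild-type ones. The means were 9.41 ± 1.33 and 5.31 ± 0.6005 FPKM (SD, n = 3). The log2 fold change of -0.72 (SE 0.19) missed the threshold (limma adjusted p = 0.0573). It passed with the filter at 5 FPKM (0.0387), with scaling to the total without erythroid and top genes (0.0474) and with sample weights (0.0311). These fits called 18.6%, 9.01% and 12.4% of all tested genes. They were 3 of 18 alternatives, over which the log2 fold change of Slc25a44 stayed between -0.88 and -0.48. Its limma adjusted p values there reached 0.176.

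Slc25a12, the aspartate-glutamate carrier of the malate-aspartate shuttle, measured 16.6, 16.2 and 14.9 FPKM in the wild type and 9.48, 12.9 and 10.8 FPKM in the knock-in. The groups did not overlap, and the log2 fold change was -0.49 (SE 0.17), which did not pass (limma adjusted p = 0.108). Over the alternatives it stayed between -0.60 and -0.37, with adjusted p values between 0.0700 and 0.260. The paralogue Slc25a13 averaged 0.198 FPKM, so Slc25a12 was the main form of this carrier in these libraries. Of the remaining amino acid carriers besides Slc25a38, Slc25a15 and Slc25a22 averaged 0.451 and 0.139 FPKM, and Slc25a2, Slc25a18 and Slc25a29 were listed at 0.

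Carriers of di- and tricarboxylates showed no separation of the groups. Slc25a10, the dicarboxylate carrier, measured 15.6, 16.5 and 20.7 FPKM in the wild type and 13.6, 17.7 and 20.1 FPKM in the knock-in, with a log2 fold change of -0.05 (SE 0.19, limma adjusted p = 0.914). Slc25a1, the citrate carrier, measured 3.10, 4.94 and 2.55 FPKM against 2.40, 1.69 and 3.14 FPKM, with a log2 fold change of -0.40 (SE 0.29, limma adjusted p = 0.439). Both sets of values overlapped.

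Slc25a11, the oxoglutarate carrier, measured 1.32, 0.951 and 3.13 FPKM in the wild type and 2.70, 6.07 and 0.951 FPKM in the knock-in. Slc25a35, a carrier of less settled substrate, measured 1.54, 3.46 and 8.96 FPKM against 2.03, 4.09 and 2.00 FPKM. Both spread several-fold within a group, and their log2 fold changes of 0.48 (SE 0.49) and -0.43 (SE 0.48) did not pass (limma adjusted p = 0.599 and 0.638). Exons of Slc25a11 overlap Rnf167 and those of Slc25a35 overlap Rangrf on the other strand, and those of Slc25a10 overlap Gm11788, so these levels are less certain.

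Slc25a20, which exchanges acylcarnitines for carnitine in fatty acid oxidation, measured 10.3, 11.8 and 17.3 FPKM in the wild type and 14.5, 11.2 and 13.2 FPKM in the knock-in. Its group means of 13.1 ± 3.69 and 13.0 ± 1.67 FPKM (SD, n = 3) differed by less than the spread, with a log2 fold change of 0.01 (SE 0.22, limma adjusted p = 0.988). Slc25a17, the peroxisomal member that carries coenzyme A and related cofactors, measured 4.69, 4.37 and 7.30 FPKM against 4.18, 5.46 and 4.98 FPKM. Slc25a36, a pyrimidine nucleotide carrier, measured 1.71, 1.41 and 1.39 FPKM against 1.65, 1.27 and 0.586 FPKM. Both overlapped between the groups, with log2 fold changes of -0.11 (SE 0.24) and -0.24 (SE 0.28) that did not pass (limma adjusted p = 0.819 and 0.657).

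Slc25a45, whose substrate is less well established, measured 4.46, 6.11 and 4.99 FPKM in the wild type and 1.30, 3.501 and 2.84 FPKM in the knock-in. The groups did not overlap, and its log2 fold change of -0.85 (SE 0.29) was the furthest from 0 in the family without passing (limma adjusted p = 0.111). With the erythroid level in the fit it was -0.87 and passed (limma adjusted p = 0.0404), where 12.7% of all tested genes were called. That was 1 of 17 alternatives, over which the limma adjusted p reached 0.304. The lowest knock-in value was that of library 1, the richest in erythroid mRNA. Slc25a46, an outer membrane protein that acts in mitochondrial fusion and fission, measured 2.39, 2.93 and 1.39 FPKM against 2.01, 2.44 and 1.73 FPKM. Its groups overlapped (log2 fold change -0.06, SE 0.27, limma adjusted p = 0.925), and its exons overlap B930094E09Rik on the other strand.

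Members of lower mean were close to the floor of the tables. Slc25a15, a carrier of ornithine, averaged 0.451 FPKM, and Slc25a23 averaged 0.0164 FPKM. Slc25a23, Slc25a26, Slc25a28 and Slc25a47 were each above 0 in a single library. Slc25a13, Slc25a14, Slc25a15, Slc25a16, Slc25a21, Slc25a22, Slc25a25, Slc25a30, Slc25a32, Slc25a33, Slc25a40, Slc25a42 and Slc25a53 were above 0 in several libraries. Slc25a40, the paralogue of Slc25a39, averaged 0.180 FPKM. Slc25a30 reached 1.18 FPKM in wild-type library 1, and no comparison was made of these genes. The 10 members listed at 0 in every library were Slc25a2, Slc25a18, Slc25a27, Slc25a29, Slc25a31, Slc25a34, Slc25a41, Slc25a43, Slc25a48 and Slc25a54. An exact 0 in such tables can be a failed estimate.

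Genes that work beside the carriers were compared in the same fit. Carriers enter the inner membrane through the TIM22 route, and of 13 genes of that route 5 were tested. In limma 0 passed, beside 8.36% of all tested genes, and 1 had an unadjusted p under 0.05, beside 25.4%. That gene was Tomm22, a receptor of the outer membrane and the most abundant of the list, at 32.8, 39.3 and 34.9 FPKM in the wild type and 28.8, 28.0 and 23.9 FPKM in the knock-in (log2 fold change -0.39, SE 0.14, limma adjusted p = 0.118). Of 22 genes of other mitochondrial membrane transport, 14 were tested, 2 rose and 0 fell, beside 8.36% of all tested genes called, with a median log2 fold change of 0.12.

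Vdac1, a pore of the outer membrane, rose from 90.9, 100 and 98.1 FPKM in the wild type to 129, 124 and 143 FPKM in the knock-in (log2 fold change 0.45, SE 0.10, limma adjusted p = 0.0356). Smdt1, a subunit of the calcium uniporter, rose from 317, 314 and 327 FPKM to 413, 492 and 494 FPKM (log2 fold change 0.54, SE 0.10, limma adjusted p = 0.0155). In both genes the groups did not overlap. The 2 calls became 0 without wild-type library 2 or 3 or knock-in library 2 or 3. In those fits 0.84%, 1.85%, 1.63% and 0% of all tested genes were called, against 8.36% in the main fit. The count became 1 without wild-type library 1 (6.61% of all genes) and 3 without knock-in library 1 (12.1%). Vdac3, the most abundant of the list, measured 387 ± 31.7 and 470 ± 27.4 FPKM (SD, n = 3), and its log2 fold change of 0.28 missed the threshold (limma adjusted p = 0.108).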

How the data were processed

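RNA of 6 mouse platelet libraries was measured, 3 per genotype, grouped and numbered by sample title. The labels' protocols name SMART-Seq HT for cDNA and Nextera XT for the libraries, kits that do not keep strand. The authors deposited FPKM for each gene symbol. The submitters' processing notes name Cuffdiff 2.2.1, TopHat2 2.1.1 and SAMtools 0.1.18, with Bowtie2 2.2.8, and the build mm10. Which settings and annotation they used is not given in the sources used here.

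Genes with a mean of at least 1 FPKM were tested on log2(FPKM + 1) with limma 3.58.1 (R 4.3.3), with genotype as the only term, a variance trend, a two-sided test and Benjamini-Hochberg adjustment over 4859 genes (threshold 0.05). Fold changes are on that scale, which understates changes of low genes. The fit was tested on simulated data with 100 genes changed by a log2 of 1 and 100 by a log2 of 2. It called 45% of the former and 83% of the latter, with 12 false calls among 140, so smaller changes can be missed. FPKM carry no depth, so no counting intervals are given. Gene positions and exon overlaps came from GENCODE M21 (GRCm38), sequences from RefSeq (GRCm38.p6) and copies from BLAST 2.17.0 with at least 90% identity over 50% of a transcript.

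Every member with a mean of at least 1 FPKM was named. A member of lower mean is not reported here. From other lists, called genes and the most abundant were named. Members and lists were chosen with earlier results of these data known. Alternatives covered pseudocounts, filters, scalings, the variance trend, sample weights, the replicate block and left-out libraries. The erythroid term was added after the data were seen.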

Additional observations from a re-analysis of the deposited data

How the results depend on the processing

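Members called higher numbered 0 under each of the alternatives run. Members called lower numbered 2 at a mean of at least 5 FPKM, 2 with sample weights, 1 with scaling to the total without erythroid and top genes, 0 to 1 with each library left out, 2 without the richest erythroid library of each group and 1 with the erythroid term. The median log2 fold change of -0.24 became -0.14 with a pseudocount of 5, -0.079 with no filter (37 members), -0.40 to -0.13 with a library left out and -0.37 without the richest libraries. The 2 called genes of other mitochondrial transport became 0 with no filter or no variance trend, 1 with quantile normalization or the replicate block, 0 to 3 with a library left out, 4 without the richest libraries and 4 with the erythroid term. The 0 calls of haem and iron-sulfur genes became 1 with sample weights or the replicate block, 0 to 6 with a library left out (6 without knock-in library 1), 7 without the richest libraries and 2 with the erythroid term. Scaling moved the median of all genes by at most 0.04. The causes were not tested.

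Some members changed sign. Log2 fold changes with a library left out ran from -1.42 to 0.23 for Slc25a39, -1.36 to 0.47 for Slc25a37, -0.70 to 0.36 for Slc25a51, -0.14 to 0.21 for Slc25a20, -0.16 to 0.10 for Slc25a10, -0.23 to 0.082 for Slc25a17, -0.41 to 0.0059 for Slc25a3, -0.89 to 0.095 for Slc25a35 and -0.26 to 0.10 for Slc25a46. Slc25a51 was 0.012 with a pseudocount of 5 and 0.012 with the erythroid term. Slc25a20 was -0.038 with scaling to the total without erythroid and top genes, -0.047 with sample weights and -0.22 without the richest libraries, where Slc25a10 was 0.025.

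The replicate block called 0 members and 306 genes, against 406 without it. Same-numbered libraries had correlated deviations of 0.158, 0.0235 and 0.141, and knock-in library 2 did not correlate best with its own number, so the libraries were not treated as paired. Without knock-in library 3, and without the variance trend, 0 genes of the whole table passed. The files give no number of fragments, so nothing is said of members listed at 0.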

Other observations

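The subunit genes of the mitochondrial pyruvate carrier, which is no SLC25 protein, differed in how they followed the erythroid level. Mpc2 measured 31.7, 23.1 and 12.7 FPKM in wild-type libraries 1, 2 and 3 and 74.7, 6.21 and 12.4 FPKM in the knock-in libraries, in the order of the erythroid markers in 15 of 15 pairs of libraries. Mpc1 measured 102, 119 and 126 FPKM in the wild type and 128, 153 and 170 FPKM in the knock-in, in that order in 4 of 15 pairs. All knock-in values of Mpc1 lay above the wild-type ones, without passing (log2 fold change 0.37, SE 0.14, limma adjusted p = 0.132). These genes were chosen after their values were seen.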
